A study of Mus musculus with 2 samples.

Results

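The Zfp genes of the mouse encode proteins with zinc fingers, and the expression of this family was described in cortical thymic epithelial cells (cTECs) that were made to produce Aire. A gene was taken as a member if its symbol on the array was Zfp followed by digits, with or without further letters, leaving out Zfp36 and its relatives. Members were also chosen by their measured level: 1 array or both had to reach the 50th percentile of the array's probe sets, a log2 level of 5.43 for Tg and 5.45 for non-Tg. Of 341 Zfp genes with a probe set of their own, 223 (65.4%) reached that level and 118 did not, and 32 of the 341 lay under the floor of 4.80 on both arrays. Over all genes, 57.3% reached it (11422 of 19938).

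The study used 2 Affymetrix arrays of NOD mice, a strain prone to autoimmune diabetes, at day 7. The Tg array held cTEC RNA from 7 mice that carry Aire in a semi-knockin allele driven by the promoter of β5t (Psmb11), a proteasome subunit made in cortical epithelium. The non-Tg array held cTEC RNA from 5 mice whose genotype is given as control. Each group had 1 array, so that no difference below has a replicate check and no test was made. The labels do not say whether mice were pooled before or after RNA extraction, and nothing used here states how the cells were isolated. The level of Aire, the transcriptional regulator that the transgene encodes, was 7.33 on the Tg array and 6.06 on the non-Tg array, and that of Psmb11 was 10.52 and 10.15.

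In the most common kind of zinc finger, cysteine and histidine residues hold a zinc ion, and fingers in a row read DNA. Many Zfp proteins also carry a KRAB domain, which recruits the co-repressor Trim28 (KAP1) and through it the histone methyltransferase Setdb1 to retroelements and imprinted regions. Genes of this kind often lie side by side as products of gene duplication, and neighbours can be alike in sequence. Other Zfp proteins activate genes, bind RNA or act in the cytoplasm. Which members carry a KRAB domain was not examined here.

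The promoters of 4 of the 11 members that differed 2-fold or more are shown first: Zfp626 and Zfp558, which had the highest and the lowest ratio, and Zfp719 and Zfp141, whose promoters were the closest pair among the 11. They are from RefSeq on GRCm38.p6 and span 300 bases around the annotated start, most of them before it. Capitals mark matches, on either strand, to GGGCGG (the GC box of Sp1-like factors), CCAAT (the CCAAT box), CCGGAAGT (an ETS-type motif), GCATGCGC (part of the NRF1 motif), TATAAA (the TATA box) and CACGTG (an E-box). These are common promoter elements, no 2 of which are the same letters, and a match is no evidence of binding.
Zfp626, highest ratio, chr7:27806946-27807245, plus strand: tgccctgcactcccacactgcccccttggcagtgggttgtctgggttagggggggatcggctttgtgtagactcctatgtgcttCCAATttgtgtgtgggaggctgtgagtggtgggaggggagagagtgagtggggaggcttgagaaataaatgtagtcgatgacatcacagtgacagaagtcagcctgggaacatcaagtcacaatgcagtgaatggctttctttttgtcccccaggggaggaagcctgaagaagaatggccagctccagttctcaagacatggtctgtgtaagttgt
Zfp719, higher in Tg, chr7:43579336-43579635, plus strand: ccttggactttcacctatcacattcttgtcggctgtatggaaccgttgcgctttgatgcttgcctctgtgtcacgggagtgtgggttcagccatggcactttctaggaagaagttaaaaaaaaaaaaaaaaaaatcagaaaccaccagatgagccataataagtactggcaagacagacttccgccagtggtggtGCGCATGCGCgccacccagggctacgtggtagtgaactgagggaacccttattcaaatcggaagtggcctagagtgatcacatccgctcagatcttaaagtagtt
Zfp141, lower in Tg, chr7:42505704-42506003, minus strand: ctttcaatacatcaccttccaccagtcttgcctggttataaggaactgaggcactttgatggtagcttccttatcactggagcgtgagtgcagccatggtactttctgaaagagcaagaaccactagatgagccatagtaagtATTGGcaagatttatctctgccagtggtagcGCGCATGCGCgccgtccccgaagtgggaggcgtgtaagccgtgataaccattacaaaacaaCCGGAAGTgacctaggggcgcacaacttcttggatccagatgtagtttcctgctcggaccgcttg
Zfp558, lowest ratio, chr9:18473596-18473895, minus strand, the first of 2 starts listed: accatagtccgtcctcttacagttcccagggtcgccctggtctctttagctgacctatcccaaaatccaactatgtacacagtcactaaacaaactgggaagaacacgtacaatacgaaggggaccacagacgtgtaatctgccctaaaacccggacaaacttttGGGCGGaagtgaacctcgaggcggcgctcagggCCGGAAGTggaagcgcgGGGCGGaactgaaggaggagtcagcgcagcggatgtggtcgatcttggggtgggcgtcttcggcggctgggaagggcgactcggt

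Zfp719 and Zfp141 both lie on chromosome 7 and both promoters hold GCATGCGC, yet their ratios had opposite signs. In a global alignment, their promoters were identical at 198 of 328 columns (60.4%). This was the closest pair among 55 pairs of the 11 members beyond 2-fold, which had a median identity of 45.3% and a next highest of 49.6%. The promoter of Zfp626 held 2 CpG dinucleotides and that of Zfp664, another gene higher in Tg, held 39.

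A promoter was listed for 177 of the 223 members, and the first listed one was used for each gene. Of these, 84 (47.5%) held GGGCGG, against 64.9% of 9121 promoters of all genes past the filter and 35.9% of 27025 promoters in all. CCAAT was in 82 (46.3%), against 38.0% of genes past the filter and 37.9% of all. The ETS-type motif was in 21 (11.9%), against 8.08% and 4%, and the NRF1 motif part in 11 (6.21%), against 5.35% and 2.80%. TATAAA was in 14 (7.91%), against 7.44% and 14.2%, and the E-box in 8 (4.52%), against 9.87% and 7.24%. The members had a median of 16 CpG dinucleotides per promoter, against 21 for all genes past the filter and 7 for all promoters. All 9 members that were 2-fold or more higher in Tg had a listed promoter. Among these 9, 4 held GGGCGG, 5 held CCAAT, 2 held TATAAA, 1 held the NRF1 motif part, and 0 held the ETS-type motif or the E-box. Both members that were 2-fold or more lower held the ETS-type motif.

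The members as a whole lay at like levels on both arrays, with a wider spread than genes in general. The log2 ratio, Tg minus non-Tg, had a median of -0.01 over the 223 members and 0.01 over all 11422 genes past the filter. It was above 0 in 106 members, below 0 in 114 and equal in the other 3. The SD of the ratio over genes was 0.43 for the members and 0.33 for all genes past the filter, and the range from the 5th to the 95th percentile was -0.56 to 0.80 for the members and -0.50 to 0.57 for all genes. The 25th and 75th percentiles were close, at -0.18 and 0.23 for the members and -0.17 and 0.20 for all genes, so that the spread differed at the ends. Members past the filter on 1 array alone had to differ, which adds to the spread. Among genes past it on both arrays, the SD was 0.36 for 187 members and 0.32 for all 10130 genes. In the second brightest of the 4 bands described below, but not in the others, the members were no wider (0.35 against 0.36). The signs depend on the scaling: with each array centred on the median of its probe sets, 115 members lay above 0 and 108 below, and centred on genes past the filter, 100 and 123.

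Of the 223 members, 9 (4.04%) were 2-fold or more higher in Tg, a log2 ratio of at least 1, where 0.797% of all genes past the filter were. In the other direction 2 members (0.897%) were 2-fold or more lower, where 0.376% of all genes were. At 1.5-fold, 20 members were higher (8.97%, against 4.74% of all genes) and 10 lower (4.48%, against 3.13%). The levels that chose the members are the levels compared, so these shares are a description. The filter adds to them: 26 members reached it on the Tg array alone and 10 on the non-Tg array alone, and such genes had to differ. Of the 26, 5 were among the 9 higher members, and of the 10, 1 was among the 2 lower ones. Among the 187 members that reached the filter on both arrays, 4 were 2-fold or more higher (2.14%, against 0.652% of 10130 genes) and 1 was lower (0.535%, against 0.286%).

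**Figure D1:**
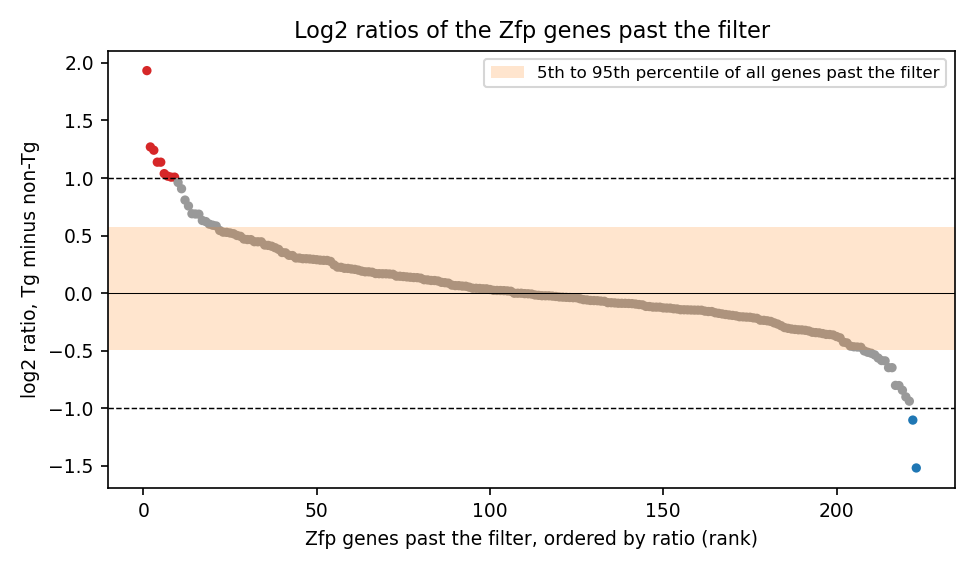
Log2 ratios (Tg minus non-Tg, vertical axis) of the 223 Zfp genes past the filter, ordered from highest to lowest along the horizontal axis, with 1 array per group. Red points are the 9 genes 2-fold or more higher in Tg, blue points the 2 genes 2-fold or more lower, dashed lines mark 2-fold, and the shaded band runs from -0.50 to 0.57, the 5th to 95th percentile of all 11422 genes past the filter.

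The higher members lay in 3 of 4 bands of brightness. The members were put in 4 bands by their mean level, and all genes past the filter in the same bands. In the brightest band, from a mean of 6.58 to 9.91 for the members, 4 of 56 members were 2-fold or more higher (7.14%, against 0.830% of 5061 genes). In the next band 0 of 56 were higher, against 1.23% of 2198 genes. The band below held 3 of 55 (5.45%, against 0.557% of 2154 genes), and the dimmest 2 of 56 (3.57%, against 0.498% of 2009 genes). These were Zfp626, Zfp882 and Zfp229, and Zfp418 and Zfp317. All of them reached the filter on the Tg array alone, so that their direction was fixed by the choice of members.

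Other zinc finger families, taken by symbol, held no member beyond 2-fold. Of 33 Zbtb genes past the filter, 11 Zkscan and Zscan genes, 13 Klf genes, 22 genes of the Zfhx, Zeb, Zic, Gli, Ikzf, Egr, Gfi and Sall groups and 16 Zc3h genes, 0 were 2-fold or more apart in either direction. The SD of the ratio over genes was 0.28 in the Zbtb family, 0.23 in Zkscan and Zscan, 0.24 in Klf, 0.25 in the mixed group and 0.20 in Zc3h. These families are small, and at the share of all genes they would hold few such genes, so the difference from the Zfp members was not tested.

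The gene with the highest ratio was Zfp626. The Tg array gave 6.73 and the non-Tg array 4.75, which is under the floor, so that Zfp626 was at least 3.82-fold higher. It was the only member beyond 3-fold in either direction, where 0.0613% of all genes were that much higher in Tg (7 of 11422). With the floor raised to the 50th percentile its log2 ratio was 1.29 in place of 1.93, which is under 3-fold. Zfp882 followed, at 6.64 against 5.37 in non-Tg (2.41-fold). Zfp949 had 7.34 and 6.10 (2.37-fold), both well past the filter.

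Zfp664 and Zfp825 were the brightest of the 9. Zfp664 had 8.64 against 7.51 in non-Tg (2.20-fold), and Zfp825 had 8.35 against 7.32 (2.05-fold). Both have a further probe set that did not give 2-fold, as described below. Zfp418, at 6.08 against 4.94 (2.20-fold), reached the filter on the Tg array alone, and with the raised floor its log2 ratio was 0.63. The remaining 3 lay at the edge of the 2-fold rule. Zfp229 had 6.29 and 5.28, Zfp719 had 7.09 and 6.08, and Zfp317 had 5.85 and 4.84, with log2 ratios of 1.02, 1.01 and 1.01. With the raised floor Zfp229 had 0.85 and Zfp317 0.41, both under 2-fold. Just under 2-fold were Zfp87, at 7.12 in Tg and 6.16 in non-Tg, Zfp354c at 8.03 and 7.12, and Zfp81 at 6.61 and 5.80. The other members between 1.5-fold and 2-fold higher were Zfp46 (6.19 against 5.43 in non-Tg), Zfp846 (5.92 against 5.28) and Zfp940 (5.80 against 5.20), with Zfp57, Zfp277, Zfp319, Zfp382 and Zfp518a, described below. Of these, Zfp46, Zfp846, Zfp940 and Zfp277 reached the filter on the Tg array alone, so that their direction was fixed by the choice of members.

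In the opposite direction, Zfp558 had 5.19 on the Tg array against 6.70 on the other, 2.86-fold lower, a log2 ratio of -1.52. Zfp558 reached the filter on the non-Tg array alone, so that its direction was fixed by the choice of members. Zfp141 had 5.90 against 7.00, 2.15-fold lower, a log2 ratio of -1.10. Next came Zfp58, at 5.10 in Tg and 6.04 in non-Tg, and Zfp706, at 7.65 and 8.55. Zfp706 encodes a small protein that in mouse embryonic stem cells holds back Klf4 and self-renewal. Zfp597 had a log2 ratio of -0.84, Zfp39 and Zfp777 both had -0.80, and Zfp729b and Zfp931 both had -0.65. Zfp58 and Zfp931 also reached the filter on the non-Tg array alone, which fixed their direction. With the raised floor their log2 ratios were -0.60 and -0.01. Zfp740 had -0.59, Zfp30 -0.58 and Zfp809 -0.56, which closes the list of the 12 lowest.

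**Figure D2:**
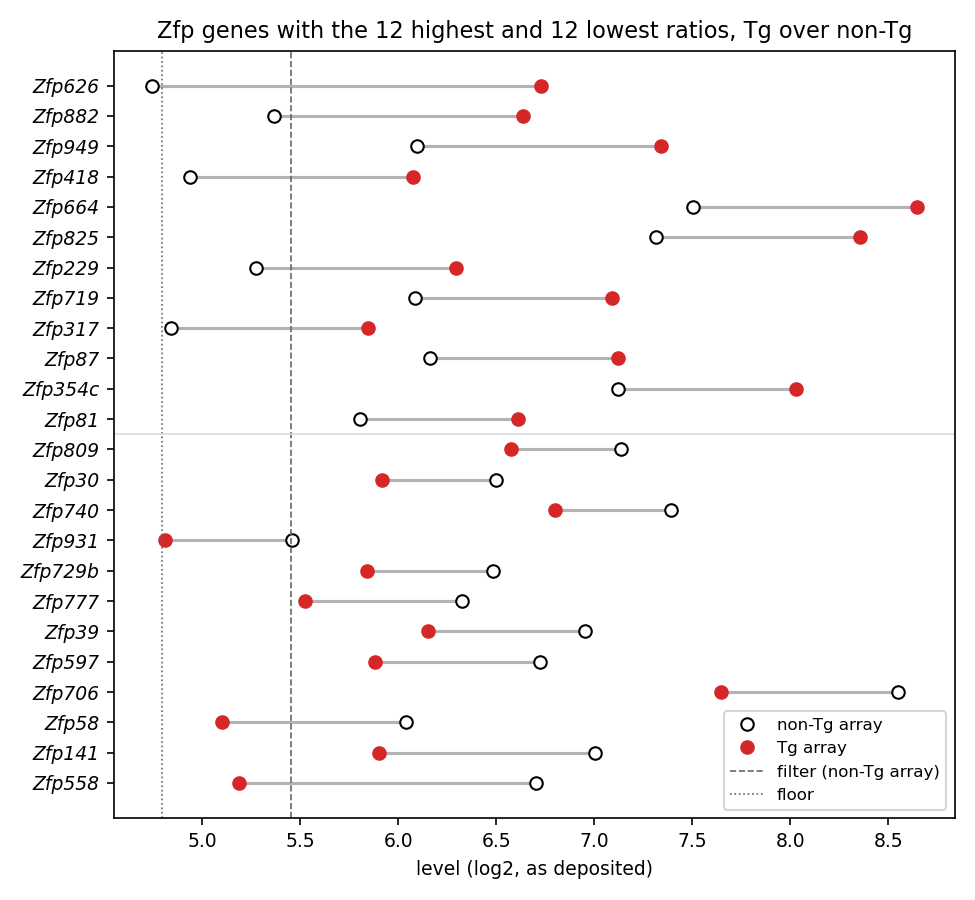
Log2 levels as deposited (horizontal axis) on the Tg array (red) and the non-Tg array (open) for the 12 Zfp genes with the highest ratio, above the grey line, and the 12 with the lowest, below it, with 1 array per group. The dashed line is the filter of the non-Tg array at 5.45 and the dotted line the floor at 4.80; Zfp626 alone has a value under the floor, and 5 of the 9 genes 2-fold or more higher in Tg lie left of the dashed line on the non-Tg array.

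Near the filter itself, the members just inside were Zfp579 (5.43 in Tg and 5.26 in non-Tg), Zfp931 (4.81 and 5.46) and Zfp957 (5.27 and 5.46). Zfp952, Zfp831 and Zfp473 lay just outside, with Tg levels of 5.43, 5.42 and 5.41 and non-Tg levels of 5.38, 5.38 and 5.40.

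Further probe sets of a member seldom gave the ratio of the brightest one. Of the 223 members, 210 have 1 probe set and 13 have several, and of the 11 members beyond 2-fold, 4 have several. In 1 of these 4, Zfp141, another probe set also reached 2-fold, with 5.93 against 6.96 in non-Tg, a log2 ratio of -1.03. Its levels were within 0.3 of those of the brightest probe set on both arrays, and whether both read the same sequence was not examined. The further probe set of Zfp664 had 5.88 and 5.81, a log2 ratio of 0.07, and that of Zfp825 had 5.50 and 5.16, a log2 ratio of 0.35. For Zfp558 the further probe set was dim on both arrays, at 4.84 (Tg) and 4.78 (non-Tg), and did not reach the filter.

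The reverse was seen in Zfp738. Its brightest probe set had 5.71 against 5.49 in non-Tg, a log2 ratio of 0.22. The second had 6.09 against 4.66, and because 4.66 is under the floor its log2 ratio was at least 1.30. The third gave -0.14 and did not reach the filter. Zfp395 had ratios of opposite sign, 0.25 on the brightest probe set and -0.70 on the other. The second probe set of Zfp706 had 7.32 against 7.53 in non-Tg, a log2 ratio of -0.21 where the first gave -0.90. The 2 probe sets of Zfp319 gave 0.69 and -0.03. Zfp788 had 0.52 on both, at levels within 0.3 of each other.

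At least 2 probe sets were past the filter in 9 members. Between the 2 brightest, the log2 ratio differed by a median of 0.69 in these 9 genes, and by 0.13 in the 658 genes of the whole array with at least 2 such probe sets. They had the same sign in 7 of the 9, and in 68.4% of the 658. From the spread of that difference over the 658 genes, the error of the ratio of 1 probe set was put at an SD of 0.30 (the SD of the difference over √2). It holds no variation between animals or amplifications, since both probe sets were read from 1 hybridisation per group. Of the 658 pairs, 33.1% had levels within 0.3 of each other on both arrays, and whether these read the same sequence was not examined. The pairs of the 9 members differed by more, so that 0.30 may be too small for Zfp genes.

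**Figure D3:**
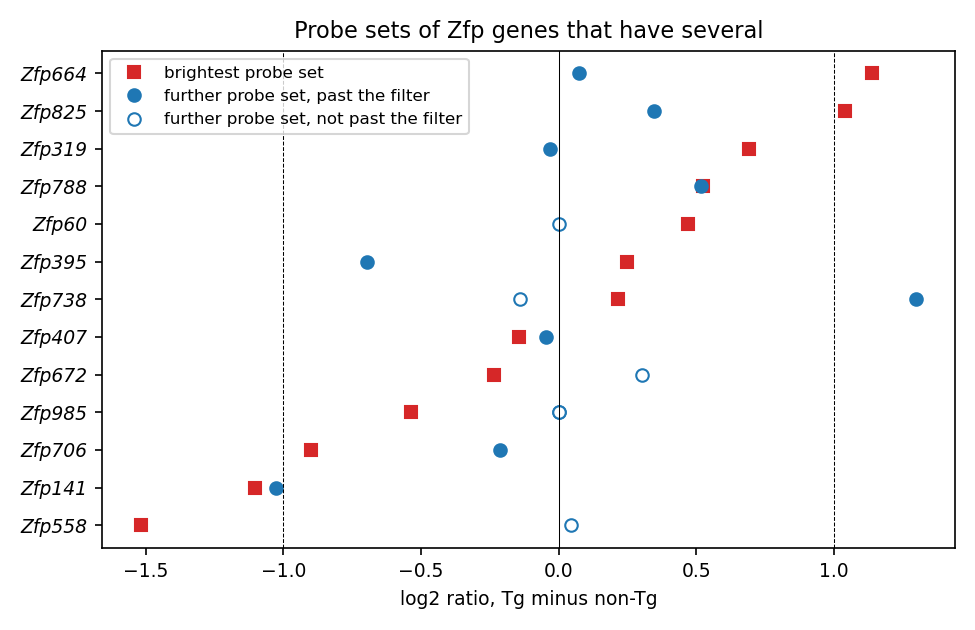
Log2 ratios (Tg minus non-Tg, horizontal axis) of the 13 Zfp genes past the filter that have several probe sets, with 1 array per group. Red squares are the brightest probe set, filled blue circles a further probe set past the filter and open circles one that is not; the dashed lines mark 2-fold, and only in Zfp141 do 2 probe sets lie beyond the same line.

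Most clusters of neighbouring Zfp genes held ratios on both sides of 0. Zfp genes were put in one cluster where, in the gene order of RefSeq on GRCm38.p6, at most 5 other protein-coding genes lay between them. There were 17 clusters with at least 3 members, holding 86 of the 223. In 14 of the 17, members lay on both sides of 0. How often groups of unrelated genes of these sizes would do so was not examined, so the count is a description. Some of the 14 held only small ratios, such as -0.14 to 0.15 in the cluster from Zfp236 to Zfp407. Cluster medians ran from -0.47 to 0.33. Of the 86 members in clusters, 3 were 2-fold or more higher (3.49%) and 0 lower, and of the 137 others, 6 were higher (4.38%) and 2 lower (1.46%), where 0.797% of all genes past the filter were higher and 0.376% lower. All 3 in clusters (Zfp626, Zfp882 and Zfp229) reached the filter on the Tg array alone, as did Zfp418 and Zfp317 among the others. Their direction was fixed by the choice of members.

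The cluster from Zfp607b to Zfp850 on chromosome 7 held Zfp626 and was the only one with all its ratios above 0. It has 8 Zfp genes, of which 7 were measured and 5 were members. Zfp60 had 0.47, Zfp780b 0.33, Zfp974 0.31 and Zfp607a 0.14, beside 1.93 for Zfp626, so that the other 4 stayed under 1.5-fold. Zfp626, Zfp780b and Zfp974 reached the filter on the Tg array alone, so that their sign was fixed by the choice of members and the shared sign is no sign of stability. Whether sequence shared between neighbours added to these signals was not tested.

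On chromosome 13, the cluster from Zfp640 to Zfp273 held members that differed in opposite directions. Of 24 Zfp genes in it, 18 were measured and 8 were members. Zfp87 had a log2 ratio of 0.96 and Zfp58 of -0.94. Zfp58 reached the filter on the non-Tg array alone, so that its sign was fixed by the choice of members. The median of the 8 was -0.02. Zfp729a had 0.30 and Zfp729b -0.65, although the symbols name them as a pair.

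The cluster on chromosome 8 from Zfp709 to Zfp961 held 4 members of 4 Zfp genes. Zfp882 had 1.27, Zfp709 -0.46, Zfp617 0.07 and Zfp961 0.02. Zfp882 reached the filter on the Tg array alone and Zfp709 on the non-Tg array alone, so that both signs were fixed by the choice of members. On chromosome 17, Zfp229 had 1.02 in a cluster of 11 members from Zfp160 to Zfp13 with a median of 0.02, in which the lowest was Zfp160 at -0.34. Zfp229 too reached the filter on the Tg array alone. The other cluster on that chromosome, from Zfp871 to Zfp414, had Zfp81 at 0.81 and Zfp871 at -0.24 (median 0.16).

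Clusters with all ratios below 0 were those from Zfp653 to Zfp810 on chromosome 9 and from Zfp397 to Zfp24 on chromosome 18, each with 3 members. In the first, Zfp809 had -0.56, Zfp653 -0.42 and Zfp599 -0.21. In the second the ratios ran from -0.17 for Zfp35 to -0.09 for Zfp397. Each lay below 0 under every scaling tried. The scalings moved these ratios by little, so that the shared sign is no measure of stability. The largest clusters by members were that on chromosome 17 from Zfp160 to Zfp13 and that on chromosome 7 from Zfp84 to Zfp146, with 11 members each. In the latter, Zfp382 had 0.62 and Zfp30 -0.58, with 6 ratios above 0 and 5 below. In the other 9 clusters the widest ratios were -0.80 for Zfp777 on chromosome 6, and 0.55 for Zfp991 with -0.54 for Zfp985 on chromosome 4.

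**Figure D4:**
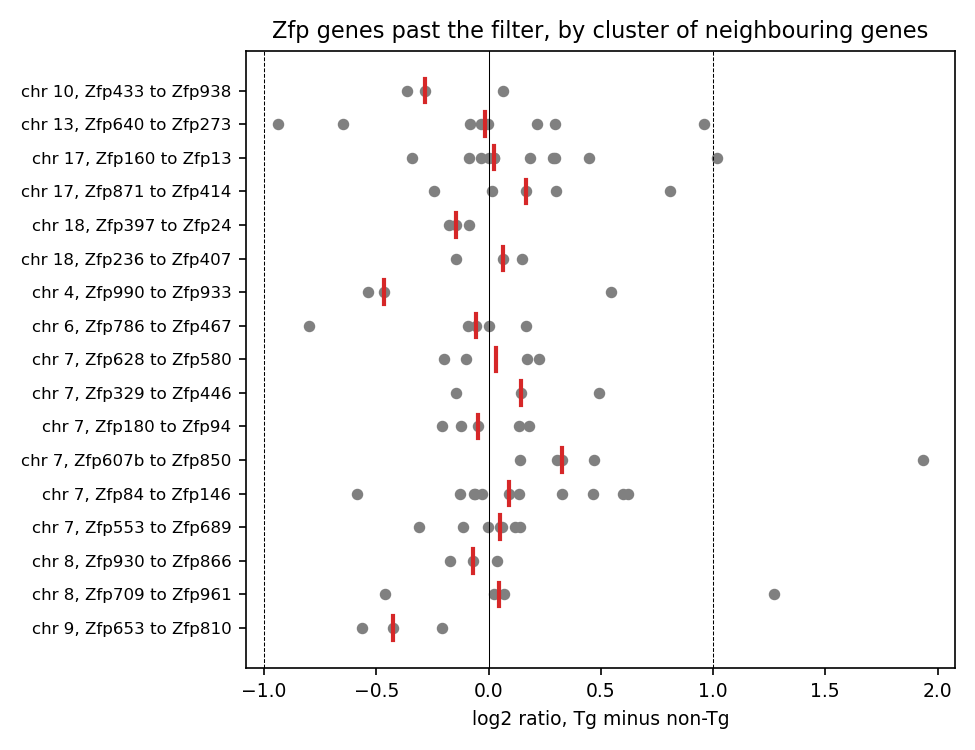
Log2 ratios (Tg minus non-Tg, horizontal axis) of the 86 Zfp genes past the filter that lie in 17 clusters of neighbouring Zfp genes, named by chromosome and by their first and last Zfp gene, with 1 array per group. Grey points are genes, red bars the cluster median and dashed lines 2-fold; members lie on both sides of 0 in 14 of the 17 clusters, and the median furthest above 0 is 0.33 on chromosome 7, from Zfp607b to Zfp850.

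Chromosome 7 held 53 of the members, with 3 of the 9 higher ones (Zfp626, Zfp418 and Zfp719) and 1 of the 2 lower ones. Chromosome 9 held 12 members, among them Zfp949, Zfp317 and Zfp558. The X chromosome held 5 members, from Zfp182 at 0.45 to Zfp280c at -0.24, and the Y chromosome 0. The Tg array gave more signal for Xist, which is made in female cells, at 7.78 against 6.28, and less for the Y-linked Eif2s3y, at 6.40 against 7.36. None of the 5 X-linked members was among the 11 beyond 2-fold.

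Members known to silence retroelements and imprinted regions had no common direction. Of 10 such genes listed, 8 were measured and 4 were members. Of the 4, 0 were beyond 2-fold, where 0.797% of all genes past the filter were higher and 0.376% lower. Zfp57, which with Trim28 maintains DNA methylation at imprinted regions in mouse, had 6.38 against 5.69 in non-Tg (1.61-fold higher). Zfp445, which acts with it at imprinted regions, had 7.70 and 7.64. Zfp809, which binds the primer binding site of murine leukaemia virus and silences it, had 6.57 against 7.14 in non-Tg (1.48-fold lower). Zfp568, which represses a placental transcript of Igf2, had 5.62 and 5.68. The pluripotency marker Zfp42 (Rex1) lay under the floor on both arrays, at 4.64 and 4.75.

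Factors of general transcription had log2 ratios from -0.34 to 0.69, with a median of 0.08. Of 22 listed, 20 were measured and all 20 were members. Of the 20, 0 were 2-fold apart, where 0.797% of all genes past the filter were higher and 0.376% lower. At the share of all genes, so small a list would hold few such genes. Zfp518a had 6.44 against 5.75 in non-Tg (1.61-fold higher). Zfp652 had 0.47 and Zfp384, a nuclear matrix protein, had 0.35. Zfp592, whose human ortholog works in a complex with ZMYND8, had the lowest ratio at -0.34. The other 16 lay between 0.30 for Zfp644 and -0.20 for Zfp207, which helps to assemble the spindle. Among them was Zfp335, which mouse T cells need to mature in the thymus, at 0.03.

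Developmental and epithelial factors had 6 members among 10 measured, with ratios from -0.34 to 0.12. Zfp423, which commits cells to the fat lineage in mouse, had 5.17 in Tg and 5.52 in non-Tg. It reached the filter on the non-Tg array alone, so that its sign was fixed by the choice of members. Zfp385b had -0.13, Zfp503 0.12 and Zfp703, whose human ortholog is amplified in breast cancer, -0.09. Zfp750, whose human ortholog drives terminal differentiation of the epidermis, did not reach the filter, at 5.24 and 5.02.

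A mixed list of genes for RNA binding, splicing, translation and other functions had 13 measured genes, of which 12 were members. Among these members 0 were 2-fold apart, where 0.797% of all genes past the filter were higher and 0.376% lower. Of the 12, 9 had ratios below 0, where 114 of all 223 members and 5531 of all 11422 genes did, and the median was -0.13. The lowest was Zfp706, named above for its part in stem cells, whose second probe set gave -0.21. Zfp326, whose human ortholog is in a complex that links elongation to splicing, had 7.49 against 8.02 in non-Tg (1.44-fold lower). The double-stranded RNA-binding protein gene Zfp346 had -0.51. On the other side, Zfp277, a partner of Polycomb proteins at Ink4a/Arf in mouse, had 5.57 against 4.98 in non-Tg (1.51-fold higher). Zfp277 reached the filter on the Tg array alone, so that its sign was fixed by the choice of members. With the floor at the 50th percentile its log2 ratio was 0.13. Zfp638, whose human ortholog NP220 silences unintegrated retroviral DNA, had 7.44 and 6.91 (1.44-fold higher).

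Most genes that KRAB zinc finger proteins act through reached the filter. Of 31 listed co-repressor and heterochromatin genes, 29 were measured, 28 reached the filter, and none of these was beyond 2-fold (0 of 28, where 0.797% of all genes were higher and 0.376% lower). Atf7ip2 lay under the floor on both arrays, and Dnmt3b reached the filter on the non-Tg array alone (5.22 in Tg and 5.64 in non-Tg). Their log2 ratios ran from -0.58 to 0.66 with a median of 0.04, with 16 above 0 and 12 below. Trim28 had 7.12 against 7.20 in non-Tg, and Setdb1 6.81 and 6.62. Beyond 1.5-fold, 3 genes were higher (10.7%, against 4.74% of all genes) and 0 lower. They were Morc3, which helps to silence retroelements, at 0.66, the histone methyltransferase gene Ehmt1 at 0.59, and Mta1, a subunit of the NuRD complex, at 0.59. Suv39h2, at -0.58 (1.495-fold lower), fell just short of the same cutoff. After quantile normalization the lowest ratio of the list was -0.61, past 1.5-fold lower, so that the counts on each side depend on the scaling.

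Markers of the labelled cell type were present, and so were markers of other cells. All 14 cTEC markers passed the filter and had log2 ratios from 0.02 to 0.48, among them Foxn1 and Prss16. The signs depend on the scaling: with each array centred on genes past the filter, 12 lay above 0 and 2 below, the lowest at -0.01. Of 14 measured thymocyte markers, 13 passed, with ratios from -0.49 to 0.21 and a median of -0.04, and Rag1 was at 10.89 in Tg and 10.96 in non-Tg. Of 8 markers of macrophages and dendritic cells, 2 passed, Tyrobp at -0.58 and C1qa at -0.31, both lower in Tg. The others did not pass and had ratios from 0 to 0.36, and the median of all 8 was 0.02. All 4 markers of endothelium passed, with ratios from -0.25 to 0.48. For medullary epithelium 6 of 8 measured markers passed, with ratios from -0.39 to 0.77. Of 5 fibroblast markers 4 passed, from -0.05 to 0.51. In RNA of many cells, fewer cells of a type and less RNA per cell cannot be told apart. The part of these other cells in the levels of single Zfp genes was not tested.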

How the data were processed

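The authors deposited values of 28856 probe sets, read here as log2 levels from their range (4.22 to 13.7). No source used here states the scale, background correction, normalization or genome build. Per the labels' protocols, 400 pg of total RNA was amplified to cDNA for each array. No scanner files or scan dates were used, so batches could not be examined, and the number of arrays limits the precision. The table held 0 columns of other samples.

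Gene names came from GEO's platform annotation. Of the probe sets, 21789 had 1 symbol, 1621 had several and 5446 had none here, and a gene was named from the first kind alone. The gene IDs of 340 of the 341 Zfp genes were found in the RefSeq table of GRCm38.p6, which was used for chromosomes and gene order, and all 223 members were protein-coding there. Hyphenated symbols of pseudogenes were not taken. For each gene the probe set with the highest mean over both arrays was used. For the ratio, values under a floor at the 25th percentile of all values (4.80) were set to that floor, and the fold is then a lower bound. With values bounded below, ratios of dim genes are compressed.

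With 1 array per group, a rule of size (2-fold) replaced a test, and no p-value was computed. Named are 12 members from each end of the ratios, members whose further probe set passed the filter with either beyond 1.5-fold, the ends of each cluster, up to 4 members of each role list, and the 3 genes on either side of the filter. Others were named after their values were seen. The members, lists and rules were chosen with earlier results of these data known. The code that makes the calls was tested on simulated data with known folds, which gives no error rate for these arrays. Software was Python 3.11.15, pandas 2.3.3, numpy 2.4.6 and matplotlib 3.10.9.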

Additional observations from a re-analysis of the deposited data

How the results depend on the processing

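The count of 9 members 2-fold or more higher ranged from 6 to 9 under the floor, probe set and scaling alternatives and under the filter on the mean of both arrays, the 75th percentile filter and no filter. It was 4 where the filter had to be reached on both arrays, an alternative that leaves out genes dim on 1 array by construction. The count of 2 members 2-fold or more lower was 1 with that filter and 1 with the mean or the median of all probe sets, where Zfp558 went from -1.52 to -0.73. At 1.5-fold the counts were 20 and 10, and at 3-fold 1 and 0. In the alternatives run, the median ratio moved by less than 0.30 and the SD over members, added after seeing the data, by less than 1.5 times; with the filter at the 75th percentile they were 0.04 and 0.57. Of the 11 members beyond 2-fold, 8 remained so with all probe sets averaged (not Zfp664 at 0.61, Zfp825 at 0.69 and Zfp558), 8 with the floor at the 50th percentile (not Zfp418 at 0.63, Zfp229 at 0.85 and Zfp317 at 0.41), 9 after quantile normalization, and 8 with each array centred on its genes past the filter. Of 476 values of 68 named members under these alternatives, 455 moved by less than 0.30, the SD of 1 probe set estimated from pairs of probe sets of 1 gene, and 21 moved by more. Many of these values could hardly move. Only 1 member had a value under the floor, 210 of the 223 members have 1 probe set, and centring shifts all ratios nearly alike. The 455 are therefore no measure of stability. None of the 11 members beyond 2-fold changed sign, but 7 of them have 1 probe set, which averaging leaves as it is. Zfp395 went from 0.25 to -0.22 with the mean or the median of all probe sets. Taking hyphenated symbols too, chosen after seeing the data, left the counts at 9 and 2. Leaving out the sex-linked members could not change either count, since none of them was beyond 2-fold. Leaving out members with a close relative by protein identity was not run, because no protein table was used here. No paired analysis was possible because each group has 1 array. Depth is not defined for arrays, and changes that stay under the floor were not detectable.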

Other observations

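Probe sets annotated to several genes, at least 1 of them a Zfp gene, entered no comparison above. Of 40 such probe sets, 25 reached the filter. None was beyond 2-fold (0 of 25), where 0.797% of all genes past the filter were higher and 0.376% lower. At those shares, 25 probe sets would hold few. Their log2 ratios had a median of 0.02 and a highest value of 0.28. The lowest was -0.91 (7.15 against 8.07 in non-Tg) and the next -0.69 (6.94 against 7.63), and both carry the same annotation to a pair of genes. Such probe sets were the only ones here for 26 Zfp symbols, whose levels are therefore not given.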
